A study of Mus musculus with 12 samples.

Results

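H3K9me2, the dimethyl mark on lysine 9 of histone H3, was profiled over input chromatin in the prefrontal cortex of FAD mice given BIX01294, a small molecule that inhibits EHMT1 and EHMT2. The 4 libraries of these FAD-BIX mice, 1 ChIP and 1 input library from each of 2 mice, were chosen by their labels from the 12 libraries of the series. Their reads were compared in 43680 regions, each a stretch of genome in which H3K9me2 had been called in at least 1 ChIP library of FAD-BIX or FAD mice. The FAD-BIX mice were C57BL/6 mice aged 5 to 6 months that carried familial Alzheimer's disease mutations and had received the inhibitor. The untreated FAD mice, set beside them, shared the strain, age and mutations. The dose and duration of BIX01294, the name of the FAD line and the promoter that drives its transgenes are not given in the sources used here, nor is which library had single-end or paired-end reads. No FAD-BIX mouse given vehicle was among the samples, and an untreated mouse of the FAD group differs from a FAD-BIX mouse in any handling that went with the treatment.

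H3K9me2 is placed largely by EHMT1 (GLP) and EHMT2 (G9a), which act as a complex, and it lies in broad domains over silent genes and gene-poor chromatin, where it is read by HP1-family and other repressor proteins. It is generally low at active promoters. BIX01294 blocks the site at which the enzymes bind the histone tail. A region with more ChIP than input reads under the inhibitor carries some of the mark, in relative terms. Whether the same mouse carried it there before treatment was not measured. Reads are scaled to the total of each library, so a loss shared by the whole genome cannot be seen here.

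FAD-BIX ChIP libraries held 20.45 and 22 M reads (M, 1e6 reads), and FAD-BIX inputs 14.7 and 13.92 M. A region held a median of 11 reads in each FAD-BIX ChIP library, against 3 and 2 reads in the inputs of mouse 1 and mouse 2. Input 1 had 0 reads in 18.5% of the regions and input 2 in 32.4%. Counting error is therefore large for a single region, and the log2 ratios below add 1 read to every count. At the region of Thy1 given below both FAD-BIX mice held many reads in ChIP and input alike, as did FAD mouse 2, but the mouse labelled FAD 1 did not. No reads of that mouse enter a comparison of FAD-BIX ChIP with FAD-BIX input, but its calls put some of the regions in the table, and results that rest on it are marked below. H3K9me2 does not read expression, so cell type markers could not check the labelled tissue: 7 of 20 cortical neuron markers, 1 of 8 astrocyte, 1 of 10 oligodendrocyte, 0 of 10 microglia and 6 of 8 endothelial markers had any region.

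Regions called in at least 1 FAD-BIX library overlapped the 250 bases before the start of 77 promoters in the RefSeq table of GRCm38.p6, which holds 32851. These were 73 of the 20667 regions so called (0.353%), near the 0.38% of all regions in the table. Those 77 windows held a median of 1 CG, against 2 in the windows under any region of the table and 6 in all windows. A choice of 3 is shown because they carry a called region and differ in base composition; CG is in capitals, and each sequence runs 5' to 3' toward the start. They were picked after the values were seen: Myo3a and Olfr736 are the named genes whose window was overlapped by a region called in both FAD-BIX libraries, and Vmn2r117 had the most ChIP reads of the windows with 0 input reads.
Myo3a (chr2:22227253-22227502, + strand): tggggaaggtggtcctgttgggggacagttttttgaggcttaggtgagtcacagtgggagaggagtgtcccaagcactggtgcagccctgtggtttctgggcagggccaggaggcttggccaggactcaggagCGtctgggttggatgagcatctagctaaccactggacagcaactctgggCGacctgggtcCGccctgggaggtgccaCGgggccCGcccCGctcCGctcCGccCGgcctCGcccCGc
Olfr736 (chr14:50392508-50392757, + strand): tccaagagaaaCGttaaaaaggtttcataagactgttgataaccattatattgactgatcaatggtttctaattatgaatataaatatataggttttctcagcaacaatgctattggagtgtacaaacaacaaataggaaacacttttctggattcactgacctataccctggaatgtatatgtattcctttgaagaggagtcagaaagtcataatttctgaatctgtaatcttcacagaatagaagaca
Vmn2r117 (chr17:23479598-23479847, - strand): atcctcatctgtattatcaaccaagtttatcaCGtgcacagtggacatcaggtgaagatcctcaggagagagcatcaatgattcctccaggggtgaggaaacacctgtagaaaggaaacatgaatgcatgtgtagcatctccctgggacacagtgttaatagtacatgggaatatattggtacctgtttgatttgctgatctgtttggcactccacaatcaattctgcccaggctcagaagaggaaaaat

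The Myo3a window, of an unconventional myosin gene known from inner-ear hair cells, held 11 CG, a count reached by 35.6% of all windows. The windows of Olfr736, an odorant receptor gene, and Vmn2r117, a pheromone receptor gene of the vomeronasal organ, held 1 CG each, and 18.8% of all windows held at most 1. The region over Myo3a (chr2:22227166-22227664) held 27 and 18 reads in FAD-BIX ChIP, against 4 and 0 in FAD-BIX input. ChIP reads lay above input in each mouse, and the test described below was not passed (log2 fold 2.88 ± 1.04, SE, n = 2 mice, adjusted p = 0.0851, edgeR). The region over Olfr736 (chr14:50392646-50393078) held 22 and 23 reads in ChIP against 1 and 2 in input, and missed it too (3.25 ± 1.09, adjusted p = 0.0795). At Vmn2r117 (chr17:23479482-23479854) the counts were 21 and 26 in ChIP and 0 and 0 in input, and that region passed (adjusted p = 0.0165).

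The first question was how far the 2 FAD-BIX mice agreed on where the mark lay under the inhibitor. ChIP 1 had 9753 called regions and ChIP 2 had 11347, 20667 regions (47.3% of all) were called in at least 1 of them, and 433 (0.991%) were called in both, 4.44% of the first list and 3.82% of the second. Calls thus rarely fell on the same region, although a missing call does not show a missing signal. The deposited calls were read against the reads of the mouse that had not made them. In the 9320 regions called in mouse 1 and not in mouse 2, the log2 ratio of ChIP to input had a median of 2.85 in mouse 1, whose reads had chosen them, and 0.93 in mouse 2. In the 10914 regions called in mouse 2 and not in mouse 1 it was 0.77 in mouse 1 and 3.25 in mouse 2. The yardstick is the 23013 regions called in no FAD-BIX library, which FAD libraries alone had put in the table: there the medians were 0.69 in mouse 1 and 0.93 in mouse 2. Regions called in one FAD-BIX mouse were therefore about as enriched in the other mouse as regions that neither had called. Mouse 2 had a ratio above 1 (2-fold) in 48.9% of the regions called in mouse 1 alone of the pair and in 48.7% of the regions called in neither, and mouse 1 in 42.3% and 37.9%. In the 433 regions called in both, the medians were 2.38 and 2.71.

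**Figure D1:**
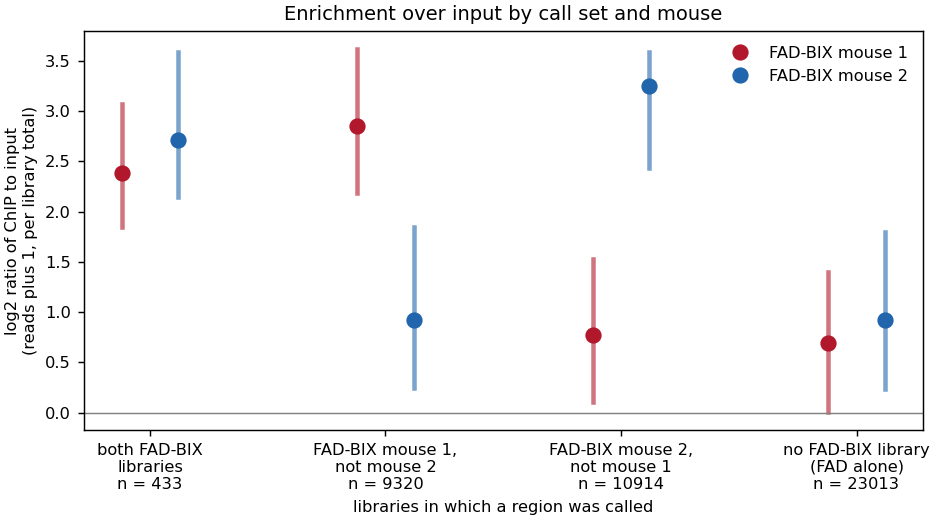
Median (points) and quartiles (bars) over regions of the log2 ratio of ChIP to input reads, each count plus 1 and per library total, in FAD-BIX mouse 1 and mouse 2, by the FAD-BIX libraries in which a region was called. Each mouse is high where it made the call, and near 0.69 to 0.93 where it did not.

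In the regions that neither FAD-BIX library had called, signal over input was present in each mouse. Reads summed over those 23013 regions gave 244960 and 243521 reads in FAD-BIX ChIP and 102459 and 69467 in FAD-BIX input, a log2 ratio per library total of 0.78 in mouse 1 and 1.15 in mouse 2. Of these regions 19.01% had a ratio above 1 in each of the 2 mice. From region to region the ratios of the mice went together little: across these regions, which share libraries, Pearson's r between the mice was 0.03, and it was 0.01 in regions with under 20 reads in the 4 libraries, 0.05 with 40 to 79 reads and 0.62 in the 268 regions with 80 reads or more. The ratio of summed reads itself was 0.78 and 1.14 in the regions with under 20 reads and 0.80 and 1.21 in those with 40 to 79. It was lower in both mice, 0.53 and 0.89, in the 268 regions with 80 reads or more. Most regions held under 40 reads over the 4 libraries, and a low r at such counts is no measure of disagreement between the mice.

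**Figure D2:**
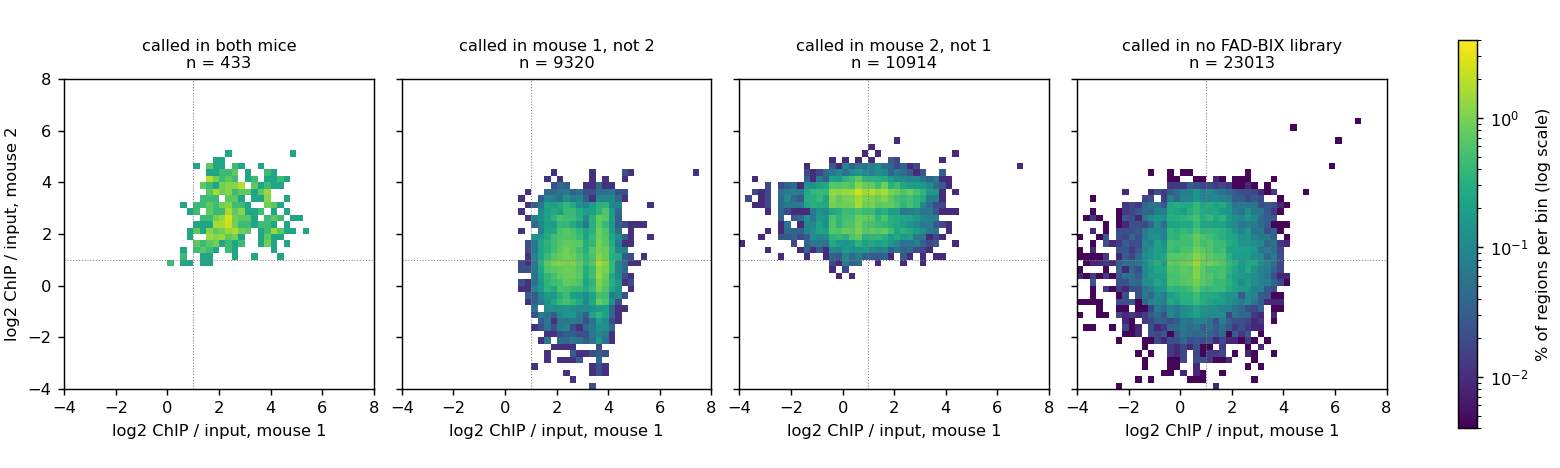
Log2 ratio of ChIP to input in FAD-BIX mouse 1 (horizontal) and mouse 2 (vertical), as the percentage of regions per bin of 0.25, for 4 call sets; dotted lines mark a ratio of 1. Regions called in 1 mouse spread widely around the median of the other, and a few of the regions called in neither lie high in both.

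ChIP and input reads were then compared region by region with edgeR's quasi-likelihood test, with library totals as library sizes and Benjamini-Hochberg adjustment over 43210 regions with at least 10 reads in the 4 libraries. ChIP was higher in 332 regions (0.768% of those tested) and lower in 0. At an unadjusted p under 0.05, 11581 (26.8%) were higher and 4 (0.00926%) lower, and DESeq2 likewise called 0 lower. Because ChIP calls put regions in the table, the higher count over all regions is partly fixed by the choice. Of the 332, 100 were called in both FAD-BIX mice, 108 in mouse 1, 111 in mouse 2 and 13 in neither. With the mouse as a block, since ChIP and input of 1 number come from 1 animal, 34 regions were higher, 32 of them among the 332, and with TMM scaling 10 were. With either ChIP library left out 0 passed, and with input 1 left out 1619 passed.

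Among the regions called in both mice, 23.1% passed, against 1.16% of those called in mouse 1 and 1.02% of those called in mouse 2. Their calls used the same reads, and these shares are a description. The leading one lay in intron 3 of Ephb1, a receptor for ephrin-B ligands in axon guidance and synapse formation (chr9:102127680-102127991). It held 144 and 87 reads in FAD-BIX ChIP, against 3 and 2 in FAD-BIX input. Both ChIP libraries lay far above both inputs, a pooled ratio per library total of 31.2, with a log2 fold of 4.92 ± 0.78 (SE, n = 2 mice) and an adjusted p of 1.81e-06. Near Scel, which encodes sciellin, a precursor of the cornified envelope of epithelia, a region between genes (chr14:103464270-103464933) held 84 and 58 reads in ChIP and 1 and 0 in input (log2 fold 6.33 ± 1.03, adjusted p = 4.25e-06). In the last intron of Qpct, glutaminyl cyclase, which forms pyroglutamate at protein ends, a 1031 bp region held 138 and 113 reads in ChIP and 2 and 10 in input (3.79 ± 0.69, adjusted p = 0.000111). The ChIP and input counts did not overlap at any of these 3 regions, which follows from their choice by smallest p.

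The others named among regions called in both mice were Vmn1r238, Trpv4, Nwd1, Vmn1r2, Tac1, Cpne8 and Nlgn1, with adjusted p from 0.000891 to 0.0072. Tac1, the precursor of substance P, had 30 and 28 reads in ChIP and 0 and 0 in input at a region between genes 5016 bp from the nearest start. Cpne8, a copine, had 27 and 27 reads in ChIP and 0 and 0 in input in intron 7. Against a floor of 3 reads over both inputs, these are at least 13.04-fold and at least 12.1-fold higher. In intron 5 of Nlgn1, a postsynaptic adhesion protein that binds neurexins, a 1052 bp region held 34 and 34 reads in ChIP and 0 and 1 in input (5.26 ± 1.17, adjusted p = 0.0072). At these 3 genes the 2 mice gave nearly equal ChIP counts, but with the mouse as a block adjusted p was 0.104 at Tac1 and 0.17 at Cpne8 and Nlgn1, and those calls were lost.

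Trpv4, a calcium-permeable channel gated by osmotic and mechanical stimuli, had many regions for a gene of 36.3 kb. Of its 9 regions, 7 were called in a FAD-BIX mouse, 3 in both, and 4 passed, where 47.3% of all regions were called in at least 1 FAD-BIX library. At exon 13 (chr5:114626603-114627149) the counts were 134 and 54 in FAD-BIX ChIP and 7 and 4 in FAD-BIX input (log2 fold 3.53 ± 0.72, adjusted p = 0.00143). At exon 7 (chr5:114632993-114633411) they were 69 and 38 in ChIP and 0 and 2 in input (5.05 ± 0.97, adjusted p = 0.000481), and at exon 2 121 and 57 in ChIP and 12 and 4 in input (2.92 ± 0.69, adjusted p = 0.0148). ChIP 1 was the higher of the 2 ChIP libraries in all 9 regions. FAD ChIP 1 and FAD ChIP 2 held 219 and 60 reads at the exon 13 region. Trpv4 had 19.3 called regions per 100 kb, where protein-coding genes under 50 kb, its own length class, held 0.234. The median gene of that class held 0, and 513 of its 16955 genes held a called region, with 589 regions among them. The densest gene of the class reached 328.9 per 100 kb. A very short gene reaches a high density with few regions, so that maximum does not place Trpv4. Trpv4 was singled out for its number of regions after the values were seen.

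Regions that no FAD-BIX library had called entered the table through FAD calls alone. FAD-BIX reads still shaped this set, since regions called in a FAD-BIX mouse were left out of it. Shares and medians in it can be lowered by that choice. Of 22543 tested, 13 (0.0577%) had higher ChIP than input and 0 lower, and before adjustment, at p under 0.05, 1579 (7.00%) were higher and 4 lower. The zero of these log2 folds depends on the scaling: with TMM the median over all regions was 0.51, against 1.65 with library totals, and in the uncalled regions it was -0.15, with 200 higher and 251 lower before adjustment. With DESeq2's own size factors it was -0.17, with 63 higher and 76 lower. Of the 13, 5 were in the table through a call in FAD ChIP 1 alone, 7 through FAD ChIP 2 alone and 1 through both; without those 5, 8 are left. The 10 named ones were led by Etfb, the beta subunit of the mitochondrial electron transfer flavoprotein. A 240 bp region in its first intron (chr7:43446954-43447194) held 114 and 105 reads in FAD-BIX ChIP, against 3 and 0 in FAD-BIX input (log2 fold 5.54 ± 0.84, adjusted p = 3.68e-07). In intron 7 of Smoc1, a secreted calcium-binding matrix protein (chr12:81159892-81160281), the counts were 162 and 91 in ChIP and 3 and 4 in input (4.58 ± 0.74, adjusted p = 2.99e-06). In intron 1 of Abca13, an ABC transporter (chr11:9202669-9202909), they were 75 and 36 in ChIP and 0 and 0 in input, at least 24.9-fold higher (adjusted p = 4.57e-06). These 3 regions were called in FAD ChIP 1 and not in FAD ChIP 2. FAD mice were high there too: FAD ChIP held 246 and 160 reads at Etfb, 258 and 150 at Smoc1, and 171 and 18 at Abca13.

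Arnt2, a bHLH-PAS transcription factor of neurons, and Ubac2, a protein of the endoplasmic reticulum, also passed. The Arnt2 region in intron 2 held 83 and 52 reads in ChIP and 11 and 4 in input (2.61 ± 0.71, adjusted p = 0.0446), and Ubac2 33 and 20 in ChIP and 1 and 1 in input (adjusted p = 0.0462). With the mouse as a block these 2 missed the threshold (adjusted p 0.335 and 0.452), while Etfb, Smoc1 and Abca13 passed. Zdhhc25, Gabrg3, Gpc5, Vmn1r204 and D5Ertd579e completed the named set without passing, at adjusted p 0.0607 to 0.0697. Gabrg3, a subunit of the GABA-A receptor, had 17 and 14 reads in ChIP and 0 and 0 in input. Gpc5, a heparan sulfate proteoglycan of the cell surface, had 12 and 19 in ChIP and 0 and 0 in input. The smallest p of all 43210 regions also belonged to this set: a 275 bp region with no gene name, chr2:83691201-83691476, held 860 and 639 reads in ChIP and 4 and 4 in input (log2 fold 6.96 ± 0.62, adjusted p = 1.45e-24). FAD ChIP held 689 and 539 reads there and FAD input 4 and 0. It falls outside the naming rule and was chosen after its values were seen.

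**Figure D3:**
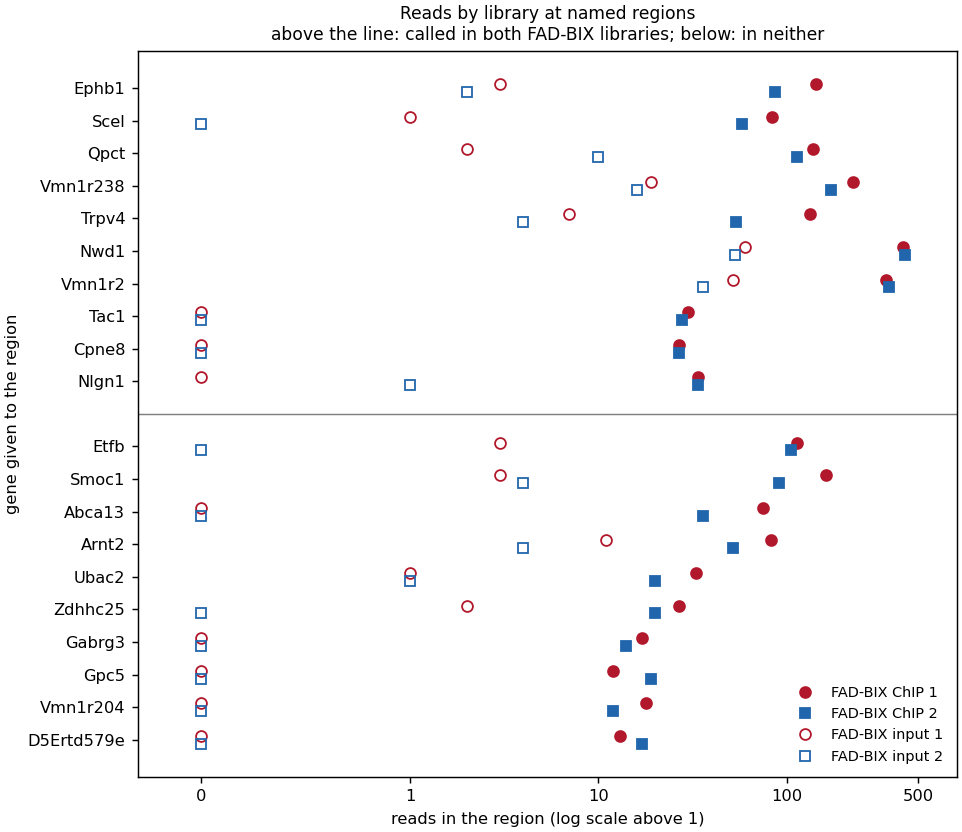
Reads in FAD-BIX ChIP 1 and 2 (filled) and FAD-BIX input 1 and 2 (open) at the 10 named regions called in both FAD-BIX libraries (above the line) and the 10 called in neither (below). Both ChIP counts lie to the right of both input counts at all 20 regions, and 7 of the 20 had 0 reads in both inputs. The regions were chosen by smallest p for higher ChIP, so this separation follows from the choice.

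Called regions were spread over the classes of region centres much as all regions were, apart from the exon classes among regions called in both. Between genes lay 71.4% of the regions called in both FAD-BIX mice, 72.5% of those called in mouse 1, 70.0% of those called in mouse 2 and 71.9% of all regions. First introns made up 4.62% of the regions called in both and 5.79% of all, and other introns 18.24% and 18.99%. Last exons made up 3.695% and 2.095%, and other exons and UTRs 2.079% and 1.211%. Those 2 classes held just 16 and 9 of the regions called in both. Regions called in neither FAD-BIX library were in the table through FAD calls alone. Their median log2 ratios in mouse 1 and mouse 2 were 0.69 and 0.93 between genes, 0.66 and 0.93 in first introns and 0.68 and 0.93 in other introns. They were 0.66 and 1.16 in last exons and 0.59 and 0.93 in other exons and UTRs. The classes thus differed by less than the mice did, apart from last exons in mouse 2. Uncalled regions held a median of 9 ChIP reads and 2 input reads in mouse 2. Many regions share 1 ratio at such counts, so the equal medians of mouse 2 are partly ties.

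By distance from the nearest transcription start, regions within 2 kb stood apart among the calls. They were 11.78% of those called in both mice and 5.808% of all, and 2.01% of them were called in both, against 0.801% to 1.09% in the bins farther away. Regions 200 kb or more away were 10.6% of those called in both and 9.70% of all. In regions called in neither mouse, the medians of mouse 1 and mouse 2 were 0.64 and 1.03 within 2 kb, 0.64 and 0.93 at 2 to 10 kb, 0.69 and 0.93 at 10 to 50 kb, 0.72 and 0.93 at 50 to 200 kb and 0.79 and 1.02 at 200 kb or more. Within 2 kb the median was thus low in mouse 1 and high in mouse 2 among the bins.

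The share of regions called in both mice differed most by width. Of the 268 regions of 1000 bp or more, 23.5% were called in both FAD-BIX mice, against 3.999% of those of 500 to under 1000 bp, 0.679% of those of 300 to under 500 bp and 0.0445% of those under 300 bp. The median width was 593 bp for regions called in both and 330 bp for regions called in neither. It was 284 and 311 bp for regions called in FAD-BIX mouse 1 or mouse 2 and in no other library. For regions called in both FAD-BIX mice it was 524 bp with no FAD call and 1054 bp with both FAD calls. The calls define the regions, so width is no trait independent of them. In the regions called in neither the medians were 0.70 and 1.22 at 1000 bp or more and 0.66 and 0.93 under 300 bp, so ratios varied far less with width than calls did. The reads behind a call varied with it, since a median of 59.5 ChIP reads of both mice fell in an uncalled region of 1000 bp or more and 15 in one under 300 bp; their part in the calls was not tested.

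Of the 5 widest regions called in both mice, 4 lay at the very start of chromosomes. Mouse chromosomes have their centromere at one end, and the assembled sequence of each begins after 3 Mb of unsequenced repeats. Of the regions in the first assembled Mb, 6.15% were called in both FAD-BIX mice, 26 of 423, against 0.931% on the rest of the autosomes. They sat on 8 chromosomes, with 7 on chromosome 4 and 4 each on 11 and 17, and their median width was 1776 bp. Of the 63 regions of 1000 bp or more called in both, 19 lay there and 44 elsewhere. Near Vmn1r2, a pheromone receptor (chr4:3174571-3179447), FAD-BIX ChIP held 338 and 352 reads and FAD-BIX input 52 and 36 (log2 fold 2.41 ± 0.51, adjusted p = 0.00356). At chr4:3080274-3084686, which has no gene name, the counts were 1206 and 984 in ChIP and 356 and 125 in input (1.64 ± 0.42, adjusted p = 0.0327), and at chr16:3232426-3235452 they were 333 and 324 in ChIP and 109 and 66 in input, which did not pass (1.35 ± 0.48, adjusted p = 0.085). Near Vmn1r238, another pheromone receptor (chr18:3116696-3120621), held 465 and 435 reads in ChIP and 67 and 53 in input (adjusted p = 0.00278). The widest of all lay elsewhere, at chr7:12012221-12018244, with 400 and 478 reads in ChIP and 59 and 59 in input (adjusted p = 0.00338).

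Input reads were high at chromosome starts as well, with medians of 45.5 and 20 per region called in both, against 3 and 2 on the rest of the autosomes. The ratios there were lower: the medians of the 26 regions were 1.46 in mouse 1 and 2.28 in mouse 2, against 2.41 and 2.77 in the 399 others on autosomes. In the 230 regions of the first Mb that no FAD-BIX library had called, the medians were 0.72 and 1.08, close to the 0.69 and 0.93 of the rest of the autosomes. The position was noticed after the values were seen. Without chromosome starts and unplaced contigs, 289 regions were higher in ChIP and 10 among those called in neither mouse.

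Most genes with many called regions were long. Macrod2, an ADP-ribosyl hydrolase gene of 2.00 Mb, had 61 of its 78 regions called in at least 1 FAD-BIX mouse, and Cntnap2, a neurexin-related adhesion gene of 2.24 Mb, had 58 of 96. Csmd1, a complement-control protein gene, and Lrp1b, a lipoprotein receptor gene, had 46 each. Then came Nrxn3, a presynaptic neurexin, Sgcz, a sarcoglycan, and Pcdh17, a protocadherin, with 34 each, Grm7, a presynaptic metabotropic glutamate receptor, and Nrg3, a neuregulin, with 32 each, and Gpc5 with 31. Between 53.5% of the regions (Gpc5) and 78.2% (Macrod2) were called in these 10 genes, beside 47.3% of all regions; the genes were chosen for their number of calls. Apart from Pcdh17, these genes are 0.92 to 2.24 Mb long; Pcdh17 is 0.09 Mb long, and just 1 of its 34 regions overlapped it, the others being given to it as the closest named start. The 2 mice gave similar numbers of calls, 30 and 32 in Macrod2 and 26 and 33 in Cntnap2, yet just 1 region of each gene was called in both.

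Longer genes held more called regions per unit of length. Per 100 kb of gene, 0.234 regions were called in at least 1 FAD-BIX mouse in protein-coding genes under 50 kb, 0.282 at 50 to under 200 kb, 0.641 at 200 to under 500 kb, 1.14 at 500 to under 1000 kb and 1.61 at 1000 kb or more. Regions called in no FAD-BIX library were spread over these bins in much the same way. In the same order of bins, uncalled regions numbered 733, 1176, 1560, 1188 and 961, beside 589, 1058, 1481, 1294 and 1281 called regions. The counting rules differed: a called region counted in each gene that held its centre, an uncalled one once, in the longest such gene. The rise thus belongs largely to the regions of the table as a whole and not to FAD-BIX calls alone. All 59 genes of 1000 kb or more held a called region, 58 of them in mouse 1 and 57 in mouse 2, against 513 of 16955 genes under 50 kb. With calls in nearly all of these long genes in each mouse, the 56 genes that both mice share say nothing of their agreement. Of the 4862 named genes with a region, 1753 had a call in mouse 1 and 2232 in mouse 2. The 935 shared are 53.3% and 41.9% of these. With so many genes called in each mouse, a large overlap arises without agreement, so these shares do not measure it either. Of 227 genes of 500 kb or more, 12 had no called region: Ank2, Foxp1, Kalrn, Magi1, Nav2, Skint5 and St6galnac3, and on the X chromosome Aff2, Arhgap6, Dach2, Diaph2 and Fgf13. These 12 had few regions of any kind. Kalrn and the genes on X held 0 regions called in FAD-BIX or FAD, and the others 1 to 3 each. Few regions could thus have been called there, and the lack of FAD-BIX calls is not read as a result. The 12 were named after the values were seen.

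In the regions that no FAD-BIX library had called, the gradient with length was shallow and showed in one mouse. By summed reads the log2 ratio of mouse 1 was 0.61 in genes under 50 kb, 0.68 at 50 to under 200 kb, 0.78 at 200 to under 500 kb, 0.83 at 500 to under 1000 kb and 0.97 at 1000 kb or more. That of mouse 2 was 1.10, 1.11, 1.19, 1.20 and 1.13 in the same order. With 2 mice this was not tested.

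**Figure D4:**
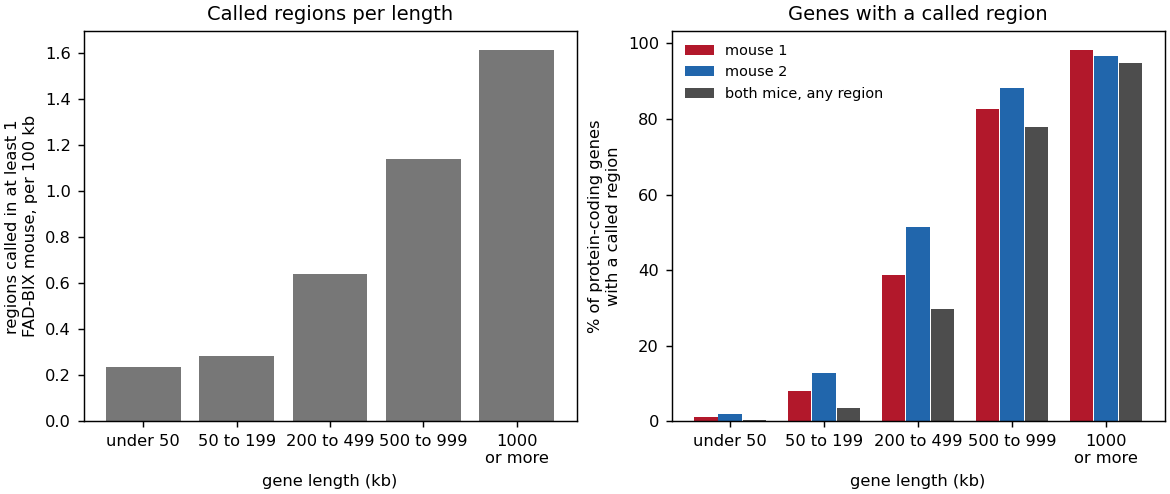
Regions called in at least 1 FAD-BIX mouse per 100 kb of protein-coding gene (left) and percentage of genes with a region called in mouse 1, in mouse 2 and in each of them (right), by gene length in RefSeq. Called regions per 100 kb go from 0.234 in genes under 50 kb to 1.61 in those of 1000 kb or more. Regions called in no FAD-BIX library, not drawn, numbered 733 and 961 in those 2 bins, beside 589 and 1281 called regions. Called regions count in each gene that holds their centre, uncalled ones once, in the longest such gene.

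Reads of the uncalled regions were also summed by gene, a step added after the data were seen. Of 3531 genes tested, 89.3% had a log2 fold above 0, with a median of 0.93, and 841 (23.8%) were higher in ChIP at an unadjusted p under 0.05. With TMM scaling the median was 0.11, with 129 higher and 61 lower at that p, and after adjustment 3 higher and 1 lower. With library totals, after adjustment, 3 genes (0.085%) were higher and 0 lower: the predicted gene 4922502D21Rik, Etfb and Smoc1. Grm7 was the highest-ranked of the 10 genes above, with 175 and 189 reads in FAD-BIX ChIP and 47 and 29 in FAD-BIX input over 14 regions (log2 fold 1.69 ± 0.33, adjusted p = 0.106). Cntnap2 had 489 and 452 reads in ChIP and 164 and 119 in input over 38 regions (1.17 ± 0.29, adjusted p = 0.106). Macrod2 had 168 and 172 in ChIP and 60 and 63 in input over 17 regions (0.90 ± 0.30, adjusted p = 0.12). ChIP lay above input in both mice at all 3.

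Gene lists were described by the same counts, beside the 332 of 43210 regions (0.768%) that passed overall and the log2 ratios of summed reads, 0.78 and 1.15, in all regions called in neither mouse. No list had a region with lower ChIP than input after adjustment, and neither did all regions together. The counts of higher regions come from the fit without the mouse as a block, and 32 of the 332 regions also passed with it. Ionotropic glutamate receptors had 1 of 174 tested regions higher. The NMDA receptor genes Grin2a (14 and 26 in ChIP, 1 and 0 in input, adjusted p = 0.0646) and Grin2b (21 and 6 in ChIP, 0 and 0 in input, adjusted p = 0.0763) did not pass, and Gria2 had no region. Metabotropic receptors had 2 of 89 higher, both in Grm7, the stronger at intron 5 with 22 and 31 reads in ChIP and 1 and 0 in input (adjusted p = 0.0311). In regions called in neither mouse their log2 ratios of 1.194 and 1.499 were above those of all regions in both mice. GABA-A receptor subunits had 2 of 119 higher, among them Gabra6 (12 and 24 in ChIP, 0 and 0 in input, adjusted p = 0.0477).

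Among adhesion genes, contactins and contactin-associated proteins had 1 of 326 regions higher, in Cntnap5b, with 33 and 45 reads in ChIP and 6 and 0 in input (adjusted p = 0.0487). Type II cadherins had 3 of 165, among them Cdh18 (28 and 17 in ChIP, 0 and 0 in input, adjusted p = 0.0195) and Cdh12 (57 and 39 in ChIP, 2 and 6 in input, adjusted p = 0.0414). Neurexins, neuroligins and postsynaptic scaffolds had 4 of 210, led by Nlgn1 and followed by Nrxn3 (25 and 12 in ChIP, 0 and 0 in input, adjusted p = 0.0426). Non-clustered protocadherins had 0 of 130 at the threshold. Axon guidance receptors had 1 of 225, the Ephb1 region, and voltage-gated potassium channels 2 of 116, led by Kcnb2, a delayed-rectifier channel subunit. Its last intron (chr1:15470265-15470573) held 172 and 83 reads in ChIP and 6 and 6 in input (log2 fold 3.84 ± 0.69, adjusted p = 7.48e-05).

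Chemosensory receptors lie in large clusters that are silent in cortex. Vomeronasal receptors had 8 of 183 regions higher, of which 3 near Vmn1r238, 2 near Vmn1r2 and 1 near Vmn1r3 lay at chromosome starts. Their log2 ratios in regions called in neither mouse were 1.18 and 1.28. Olfactory receptors, with 497 genes the list with the most regions, had 3 of 709, such as Olfr1265 (23 and 28 in ChIP, 0 and 0 in input, adjusted p = 0.0107) and Olfr1122 (27 and 34 in ChIP, 0 and 2 in input, adjusted p = 0.0323), and ratios of 0.85 and 1.30. Zinc-finger protein genes, many of which are known to carry the trimethyl form of the mark, had 1 of 221, in Zfp804b, and the ratios 0.51 and 0.81, lower than all regions in both mice. Cytochrome P450 genes had 1 of 110, in Cyp2c37, with 0.71 and 1.09, and serpin genes 0 of 47 with 0.94 and 1.35. The order of the lists is a description with 2 mice and was not tested.

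Lists tied to the inhibitor and the disease held few regions. The H3K9 methylation enzymes and readers had regions in 3 of 20 genes, with 0 of 7 regions higher. Ehmt1, a target of BIX01294, had 15 and 5 reads in ChIP and 0 and 1 in input in intron 4 (adjusted p = 0.171), and Kdm4c, an H3K9 demethylase, 6 and 13 in ChIP and 0 and 0 in input (adjusted p = 0.0963). Alzheimer disease genes had regions in 3 of 14 and 0 of 5 higher; near App, the amyloid precursor, the counts were 18 and 9 in ChIP and 0 and 0 in input (adjusted p = 0.0763). Activity-regulated genes had 0 of 4 higher, with 10 and 10 reads in ChIP and 2 and 0 in input at Nr4a2, and 21 and 12 in ChIP and 4 and 3 in input at Bdnf. Cortical neuron markers had 0 of 29 higher, astrocyte, oligodendrocyte and endothelial markers 0 of 8 each, and 0 of 10 housekeeping genes had a region.

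**Figure D5:**
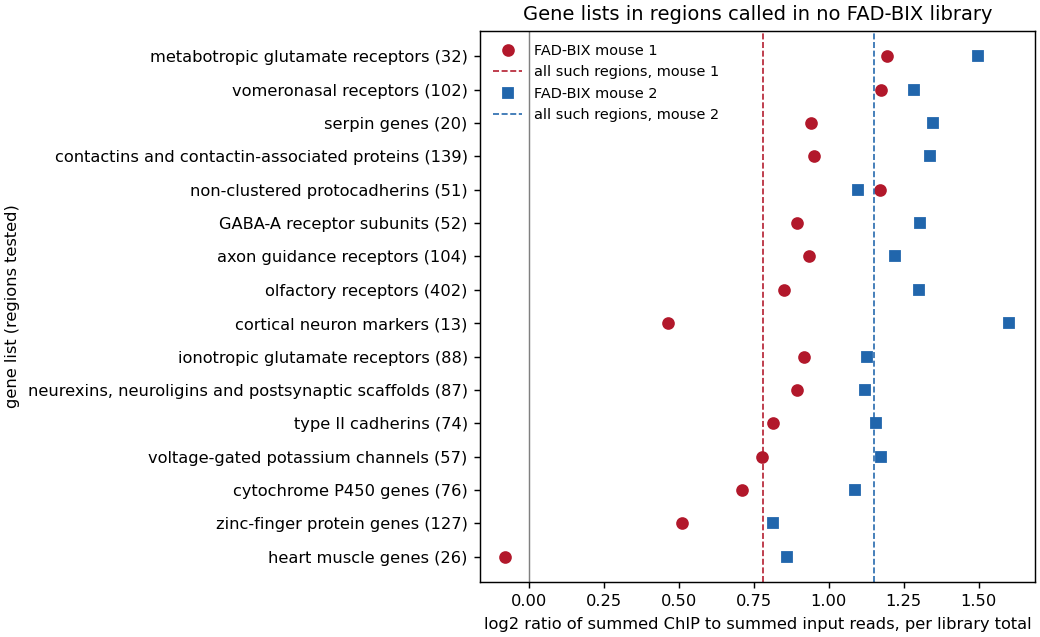
Log2 ratio of summed ChIP to summed input reads, per library total, in FAD-BIX mouse 1 and mouse 2, for gene lists with at least 10 tested regions among those called in no FAD-BIX library; dashed lines are all such regions, 0.78 in mouse 1 and 1.15 in mouse 2. Heart muscle genes (-0.08 and 0.86), zinc-finger protein genes (0.51 and 0.81) and cytochrome P450 genes (0.71 and 1.09) lie below the dashed line in each mouse.

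Some called regions carried little more ChIP than input. Of called regions with at least 20 input reads, those with the lowest pooled ratio, taking 1 region a gene, were near Thy1, Dsg1a, Sim1 and Trpm8 and in Sfi1; without that limit, 3 of the lowest 5 were regions of Thy1. At the region before Thy1, which encodes a surface protein of neurons and lends its promoter to many transgenes (chr9:44042064-44042390), FAD-BIX ChIP held 569 and 548 reads and FAD-BIX input 479 and 260, a pooled ratio per library total of 1.02. In its first intron (chr9:44042877-44045067) the counts were 3757 and 4100 in ChIP and 2690 and 1314 in input, a ratio of 1.32; FAD ChIP held 4 and 5503 reads there and FAD input 31 and 2697. Both regions were called although input was high there too. In Sfi1, a centrin-binding gene with many copies in the mouse, the ratio was 1.33, with 914 and 897 reads in ChIP and 573 and 347 in input. It was 1.26 near Dsg1a, a desmosomal cadherin, 1.35 near Sim1, a hypothalamic transcription factor, and 1.56 near Trpm8, the cold receptor. None of the 6 passed (adjusted p from 0.398 to 0.951), and with TMM scaling the log2 folds of all 6 were below 0.

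The last comparison set FAD-BIX beside FAD on regions that each group had not called itself. In the 23013 regions called by FAD alone, the median log2 ratio was 0.69 and 0.93 in FAD-BIX mice; in the 18436 called by FAD-BIX alone, it was 0.88 and 1.12 in FAD mice. The group means were 0.81 in FAD-BIX and 1.00 in FAD, a difference of -0.19 with overlapping mice (exact permutation test, two-sided p = 0.667; 2 against 2 mice cannot go below 0.333). That test could not have detected a difference. Without FAD mouse 1, whose 0.88 makes the groups overlap, FAD mouse 2 at 1.12 lay above both FAD-BIX mice, a difference of -0.31, with no test. By the test of the difference itself, in edgeR over 43664 regions with at least 20 reads in the 8 libraries, 0 regions differed, and 1051 (2.41%) were higher and 1545 (3.54%) lower before adjustment, at p under 0.05. Regions that FAD alone had called made up 1492 of those lower and 17 of those higher. The same reads had made the calls, so this split is partly fixed by the choice of regions. The balance turned with the scaling, to 1898 higher and 1412 lower with TMM and 2075 and 625 with DESeq2's own size factors, and without FAD ChIP 2, to 1120 and 618. DESeq2 called 0 after adjustment. Without both libraries of the mouse labelled FAD 1, 1 region passed, and 581 were higher and 2702 lower before adjustment. By the same rule as in FAD-BIX, FAD ChIP was higher than FAD input in 47 of 42607 regions (0.11%). Of the 17363 that no FAD library had called, 8 (0.0461%) were higher. These counts rest partly on FAD mouse 1, and FAD ChIP over input was not fitted without it. FAD ChIP 1 had 3904 called regions and FAD ChIP 2 had 21930. The counts are therefore not read as a difference between the groups.

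Among regions with a gene name, those of smallest p in each direction were at low counts or rested on FAD mouse 1. A region without one, chr9:78175341-78175620, held 2 and 222 reads in FAD-BIX ChIP and 2 and 4 in FAD-BIX input, against 14 and 0 in FAD ChIP and 6 and 6 in FAD input (adjusted p = 0.795); it rests on FAD-BIX ChIP 2 and was picked after its values were seen. The 5 higher in FAD-BIX had 0 input reads in both FAD-BIX mice, so their fitted folds are no bounds. Dpp10, a subunit of potassium channels, held 12 and 20 reads in FAD-BIX ChIP and 0 and 0 in FAD-BIX input, and 15 and 4 in FAD ChIP and 7 and 9 in FAD input (adjusted p = 0.808). Rhoj, a small GTPase of vessels, Pid1, Speer4f2 and Fgf12, a channel-binding growth factor homologue, had the same adjusted p. Lower in FAD-BIX were Cep85l, Actc1, Abi3bp, Cldn17 and Ttc5. At Cep85l, a centrosomal protein gene, FAD-BIX ChIP held 0 and 4 reads and FAD-BIX input 8 and 8, while FAD ChIP held 147 and 5 and FAD input 5 and 2 (adjusted p = 0.139). At Abi3bp, an extracellular matrix protein gene, the counts were 2 and 5 in FAD-BIX ChIP and 6 and 8 in FAD-BIX input, against 16 and 23 in FAD ChIP and 0 and 0 in FAD input (adjusted p = 0.808).

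Heart muscle genes were not alike. Mb, Nppa, Actc1 and Myh6, named because earlier results had named them, stood high in FAD ChIP 1 and had few reads in FAD-BIX ChIP. At Mb (myoglobin) FAD-BIX ChIP held 2 and 6 reads and FAD-BIX input 6 and 2, against 229 and 9 in FAD ChIP. At Nppa (atrial natriuretic peptide) the counts were 1 and 2 in FAD-BIX ChIP and 2 and 0 in FAD-BIX input, against 160 and 4 in FAD ChIP. At Actc1 (cardiac actin) they were 5 and 2 in ChIP and 7 and 3 in input, and at Myh6 (cardiac myosin) 5 and 1 in ChIP and 7 and 2 in input. At Ryr2, the ryanodine receptor of heart and brain, FAD-BIX ChIP held 24 and 18 reads and FAD-BIX input 0 and 1, against 10 and 8 in FAD ChIP (FAD-BIX ChIP over input, adjusted p = 0.0556). At Ttn (titin) the counts were 4 and 17 in FAD-BIX ChIP and 0 and 0 in FAD-BIX input, against 6 and 8 in FAD ChIP. The list as a whole had 0 of 40 regions higher, and log2 ratios of -0.08 and 0.86 over regions called in neither FAD-BIX mouse.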

How the data were processed

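The authors deposited, for each region called in FAD-BIX or FAD ChIP, read counts and RPM (counts scaled to library total) per library and a fold ratio, per the file headers. The submitters' processing notes name BWA 0.7.12, MACS2 2.1.0, Trimmomatic, FastQC and the build mm9. Of the gene names matched to RefSeq, 99.8% overlapped their gene in GRCm38.p6, so GRCm38 is named for all coordinates; the notes do not say if starts count from 0 or 1. Repeated rows were reduced to 1 per region (748 of 44428 removed). Library totals were recovered from the deposited RPM and counts. A region was taken as called in a library by the deposited table. The other deposited comparison, of FAD with WT, was not used here.

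Counts were tested with edgeR 4.0.16 (quasi-likelihood, library totals, at least 10 reads over 4 libraries, or 20 over 8, Benjamini-Hochberg threshold 0.05); DESeq2 1.42.0 was an alternative. SE is the log2 fold divided by the square root of F. The fits were tested on simulated data. Groups hold 2 mice each, so p-values rest on the spread between 2 mice. ChIP and input of 1 number come from 1 mouse, per the labels; their deviations correlated at -0.23 over all regions and 0.05 over regions called in no FAD-BIX library. Named regions were, per set, with 1 region a gene, the 10 of smallest p with a gene name (called in both; called in neither), the 5 called regions of lowest ratio with at least 20 input reads, the 5 widest called in both, the 5 of smallest p each way for FAD-BIX minus FAD, the 2 genes of smallest p per list, the 10 genes with most called regions and a few genes that earlier results had named; predicted genes and contigs were not named. Members and lists were chosen with earlier results of these data known. Other alternatives were scaling, filters, added counts, thresholds and each library left out. Some named regions are not reported here.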

Additional observations from a re-analysis of the deposited data

Results flagged for a closer look

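At 6 named regions both FAD-BIX mice had ChIP over input on one side of 0 and both FAD mice on the other; the test of that difference was not passed at any of them in edgeR (adjusted p 0.139 to 0.808). The fitted log2 difference, FAD-BIX minus FAD, was 7.34 at Fgf12, -6.15 at Cep85l, -7.26 at Actc1, -8.55 at Abi3bp, -5.36 at Ttc5 and -3.98 at Myh6. Where a library had 0 reads these values depend on the prior count. Cep85l, Actc1 and Myh6 rest on the ChIP library labelled FAD 1, with 147, 136 and 82 reads there against 5, 13 and 6 in FAD ChIP 2.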

How the results depend on the processing

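The 332 regions with higher ChIP were 47 at an adjusted p of 0.01, 10 with TMM scaling, 1 with DESeq2's own size factors, 31 with DESeq2 and library totals, 1 with filterByExpr, 34 with the replicate block, and 0 to 1619 with 1 library left out. The 13 in regions called in no FAD-BIX library were 5 at 0.01, 5 with TMM, 1 with DESeq2's own size factors, 5 with DESeq2 and library totals, 1 with filterByExpr, 5 with the replicate block, and 0 to 162 with 1 library left out. The 0 regions differing between FAD-BIX and FAD were 2 with TMM, 0 to 5 with 1 library left out and 1 without both FAD mouse 1 libraries, a setting chosen after seeing the data. The 3 genes were 46 with DESeq2 and library totals and 3 to 1005 with 1 library left out. The share of regions called in mouse 1 above threshold in mouse 2, 48.9%, was 54.6% adding 0.5 reads, 9.75% adding 5, 81.4% above 0, 21.2% above 2 and 9.90% with at least 5 input reads; the share called in mouse 2, 42.3%, was 46.7%, 10.3%, 77.8%, 15.6% and 8.65%. Median log2 ratios over all regions, 1.11 in mouse 1 and 1.51 in mouse 2, were 0.47 and 0.56 adding 5 reads and 0.109 and 0.0772 with at least 5 input reads. Low ratios changed sign. With TMM and with DESeq2's own size factors the log2 folds were -1.12 and -1.13 before Thy1, -0.74 and -0.74 in its intron, -0.85 and -0.92 at Dsg1a, -0.75 and -0.76 at Sfi1, -0.71 and -0.68 at Sim1, and -0.51 and -0.51 at Trpm8. With 1 library left out they ran from -0.31 to 0.50 before Thy1, from -0.38 to 0.84 at Dsg1a, from -0.21 to 1.69 at Sim1 and from -1.43 to 0.36 at Mb. Of the other alternatives for named regions, 310 kept direction and side of the threshold, 100 lost the call and 6 gained it; the cause was not tested. Depth limits single regions: median input was 3 and 2 reads.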
